A study of Saccharomyces cerevisiae with 2 samples.

Results

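Engaged RNA polymerase was measured across the protein-coding genes of wild type budding yeast, Saccharomyces cerevisiae, by a genomic run-on assay (BioGRO-seq). The genes described are all rows of the deposited count table that are classed as protein-coding, 5309 of 6448, read from the wild type column alone. The series concerned how the mRNA exonuclease Xrn1 affects transcription, and its deletion strain is not analysed here. The library came from BY4741, a haploid strain of mating type a that by its known genotype lacks LEU2, MET17 (MET15), URA3 and part of HIS3. Per the labels, cells were grown to an OD600 of 0.55, frozen, made permeable with 0.5% sarkosyl, and treated with RNase A. The run-on lasted 5 min at 30 °C with a biotinylated UTP. The sources used here do not state the growth medium.

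In a run-on assay, polymerases already engaged on a gene resume in permeable cells and add labelled nucleotides, while new initiation is blocked by the detergent. The label therefore counts polymerases on the gene that can resume, and not the amount of mature mRNA, which also depends on decay. In growing yeast, textbook accounts place much of RNA polymerase II on genes for ribosomal proteins and glycolytic enzymes, while genes for sporulation, for other carbon sources and near telomeres are held repressed. The counts average over all cells of the culture, so fewer cells that transcribe a gene and fewer polymerases per cell cannot be told apart.

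With 1 library there is no replicate, so no test and no p-value is given, and variation between cultures was not measured. Intervals are exact 95% Poisson intervals of a count or exact (Clopper-Pearson) binomial intervals of a share, and they cover counting error only. The column held 64934493 counts, of which the protein-coding rows took 62586331, or 96.4%. A typical protein-coding gene was deeply covered, with a median of 5768 counts, or 88.8 CPM (counts per 1000000 of the column total). Levels of different genes are compared only per length, as CPM per kb of the annotated coding length with introns. A length was known for 5273 of the 5309 genes. The sources used here do not say whether the counting used strand or how reads with several matches were treated. Values of 2 kinds of gene are therefore uncertain. These are 130 genes with a near-identical copy (at least 95% identity over at least 50% of the shorter gene) and 120 genes that overlap another annotated gene. Overlap was sought only among genes of the RefSeq annotation, which gives a length for 3 of the 573 rows classed as dubious. Overlap with the other dubious rows was not tested.

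Most genes were transcribed at much the same level, with long tails above and below. The median gene had 67.3 CPM per kb, and 3260 genes, 61.8%, lay within 2-fold of it. The middle of the distribution was narrow, with 41.7 CPM per kb at the 25th percentile and 118 at the 75th, a ratio of 2.84. The tails were wide, with 5.64 CPM per kb at the 5th percentile and 485 at the 95th, a ratio of 86.0, which was 49.8 without near-identical copies. The highest gene, CCW12, reached 6889 CPM per kb, 102 times the median gene. A gene was called high at 4 times the level of the median gene or more, which held for 495 of 5273 genes (9.39%). It was called low at or below the median level divided by 4, which held for 445 genes (8.44%). The high tail thinned out quickly, with 230 genes at 8-fold or more, 92 at 16-fold, 28 at 32-fold and 12 at 64-fold. The low tail reached farther, since 111 genes lay at least 64-fold under the median gene.

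Transcription was concentrated on few genes. The 10 genes with the most counts held 8.06% of protein-coding counts, the top 50 held 17.9% and the top 100 held 24.6%. Only 534 genes, 10.1%, carried 50% of the counts, while the 2654 genes with the fewest counts together carried 11.8%. The single largest count belonged to PMA1 (chrVII:479910-482666), the proton pump of the plasma membrane, with 819733 counts or 12624 CPM.

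**Figure D1:**
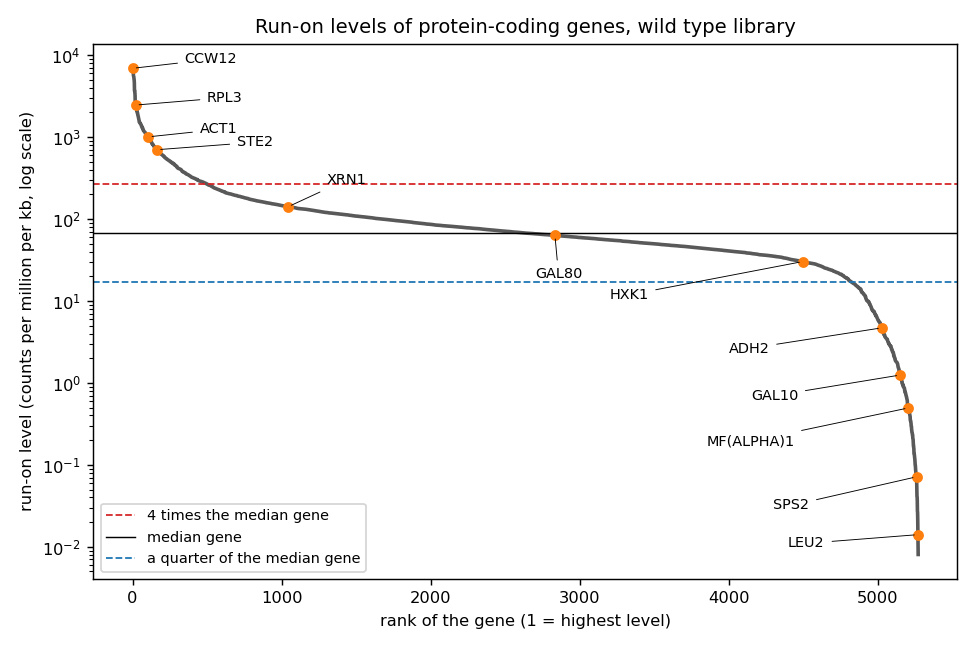
Run-on level of each of 5273 protein-coding genes in CPM per kb (log scale, vertical axis) against its rank (horizontal axis), with the median gene as a solid line and the 4-fold limits above and below it as dashed lines. Orange points mark 12 named genes, and the curve is nearly flat in its middle, with CCW12 at 6889 and LEU2, which the strain lacks, at 0.0141.

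The highest levels belonged to genes of the cell wall, glycolysis and fermentation, valine and isoleucine synthesis, proton export, glycerol production, chromatin and the ribosome. The 15 highest genes of at least 300 bp without an overlap or a near-identical copy began with CCW12 (chrXII:369697-370098), which encodes a mannoprotein of the cell wall. Its 179824 counts (95% interval 178994 to 180657) gave 6889 CPM per kb. Of the next 9, 8 were enzymes of the path from glucose to ethanol. These were PGK1 at 6496, ENO2 at 6422, CDC19 at 5838, GPM1 at 5607, TPI1 at 5466, ADH1 at 5271, FBA1 at 5140 and PDC1 at 4912 CPM per kb. The other was ILV5, a mitochondrial enzyme of branched-chain amino acid synthesis that also binds mitochondrial DNA, at 5527 CPM per kb. PMA1 followed at 4579 CPM per kb, then GPP1, a glycerol-3-phosphate phosphatase, at 3645, and the second enolase gene ENO1 at 3178. The set closed with the histone H2B gene HTB1 at 2543 and with RPL3, a protein of the large ribosomal subunit, at 2452 CPM per kb. Without the filters on length and copies, TDH3, RPS29A and SPO24 also came among the highest 15, at 6365, 3662 and 3653 CPM per kb. SPO24 is a short gene named for a role in sporulation, whereas the sporulation genes described further on were low.

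Functional lists of 1449 genes, 27.3% of the protein-coding genes, carried 48.9% of the counts and 326 of the 495 high genes. Glycolysis and fermentation took the largest share, 7.92% of counts (interval 7.91 to 7.93) with 0.377% of genes. The cytosolic ribosomal proteins came next with 7.71% (7.71 to 7.72), from 2.58% of genes. Near-identical copies occur at 40 of these 137 genes and at 2 of the 20 genes of glycolysis and fermentation. The part of shared reads in the order of these 2 lists was not tested. Far behind stood the cell wall with 3.04% of counts, ribosome biogenesis with 2.96%, chaperones with 2.69%, amino acid biosynthesis with 2.68%, plasma membrane transporters with 2.26% and translation factors with 2.23%. The share of counts over the share of genes was 21.0 for glycolysis and fermentation, 6.32 for the transporters, 4.46 for the chaperones and 4.24 for the cell wall. It was 2.99 for the ribosomal proteins, whose genes are short, and 1.33 for ribosome biogenesis. The value of the transporters rests largely on PMA1, which had 819733 of that list's 1415451 counts. The shares of counts combine level and length, so the levels per kb are given with each group.

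**Figure D2:**
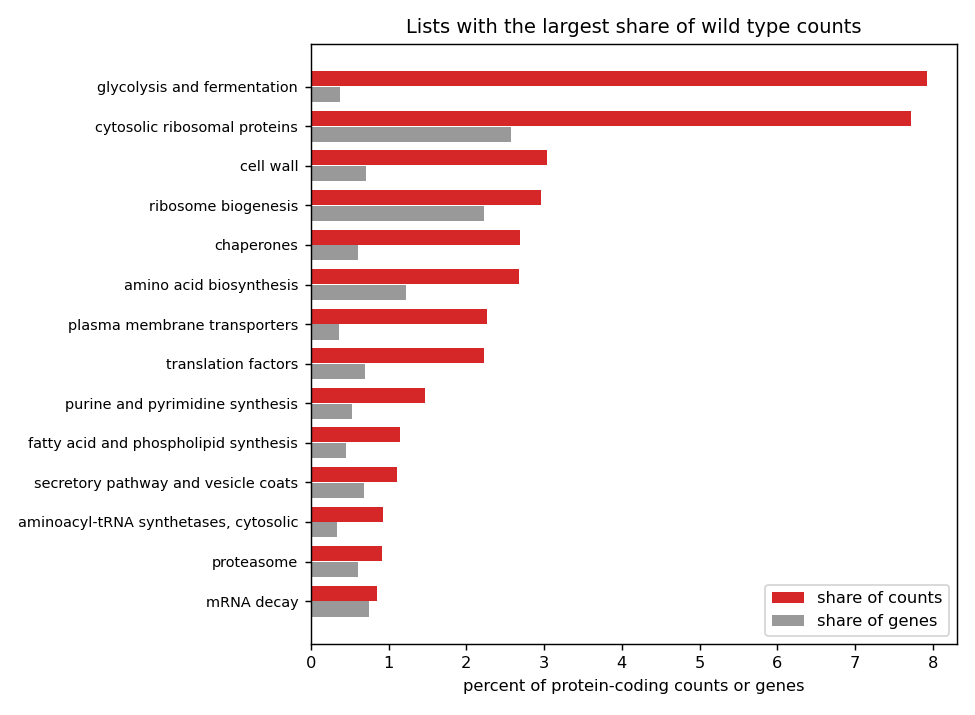
Share of all protein-coding counts (red bars, percent) and share of protein-coding genes (grey bars, percent) for the 14 functional lists with the largest share of counts. Glycolysis and fermentation at 7.92% and cytosolic ribosomal proteins at 7.71% stand apart from the other lists, which lie at or under 3.04%.

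Enzymes of glycolysis and fermentation turn glucose into ethanol, and their 20 genes had a median of 3288 CPM per kb, 48.8 times the median gene. In this list 17 of 20 genes were high, where 9.39% of all genes were. The reaction steps were not equal. The upper steps were lower, with the glucose kinases HXK2 at 851 and GLK1, which overlaps another gene, at 559, the isomerase PGI1 at 1418, and the phosphofructokinase subunits PFK1 and PFK2 at 619 and 898 CPM per kb. From the aldolase FBA1 onward, each step had at least 1 gene above 4900 CPM per kb. The main genes of the 9 steps from FBA1 to ADH1 spanned only 4912 to 6496 CPM per kb. Genes of the list that were not high were PYK2 at 65.7, PDC5 at 45.1 and PDC6 at 1.31 CPM per kb. The list left out HXK1, ADH2, ADH3, ADH4 and ADH5 of the same enzyme families, and of these ADH3 alone was high. PDC6 encodes a minor pyruvate decarboxylase and had 144 counts.

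In some of these enzyme families, 1 gene carried nearly all of the summed level per kb, and in others it was divided. PDC1 held 99.1%, CDC19 98.9% and ADH1 90.4% of its family, against 66.9% for ENO2, 62.6% for TDH3 and 59.1% for HXK2. The main pyruvate decarboxylase PDC1 stood 109-fold above PDC5 and 3748-fold above PDC6 in CPM per kb. The pyruvate kinase CDC19 stood 88.9-fold above PYK2, at 5838 against 65.7 CPM per kb. ADH1, the fermentative alcohol dehydrogenase, stood 1123-fold above ADH2, the enzyme that consumes ethanol and is repressed by glucose, at 5271 against 4.69 CPM per kb. ADH3, the mitochondrial form, had 333, ADH4 had 164 and ADH5 had 60.1 CPM per kb. The enolase genes were closer, at 6422 for ENO2 and 3178 for ENO1. The glyceraldehyde-3-phosphate dehydrogenase genes stood at 6365 for TDH3, 3397 for TDH2 and 402 CPM per kb for TDH1. TDH2 and TDH3 match at 95.8%, so how reads divide between them is uncertain.

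Glucose entry was divided between a pair of transporters and a pair of kinases. HXT3 and HXT1, transporters of low affinity that are induced by glucose, had 1024 and 615 CPM per kb, 57.6% and 34.5% of the summed level of the 7 HXT genes compared. HXT2 and HXT4, of higher affinity, had 86.6 and 50.6 CPM per kb. HXT5, which is used in slow growth, had 1.54, and the high-affinity genes HXT7 and HXT6 had 1.02 and 0.782 CPM per kb. HXT6 and HXT7 are near-identical copies, and the part of shared reads in their levels was not tested. Of the kinase genes, HXK2 and GLK1 held 59.1% and 38.8% of the summed level, and HXK1, which is repressed by glucose, had 30.2 CPM per kb. Over all 34 families compared, the highest gene stood at least 10-fold above the next in 10, 2- to 10-fold in 13 and less than 2-fold in 11. Families of both kinds occurred outside glycolysis. PMA1 stood 277-fold above its paralog PMA2. The translation elongation factor 3 gene YEF3 (2370 CPM per kb) stood 162-fold above HEF3. HYP2, for eIF5A, had 1053 CPM per kb against 86.1 for the hypoxic form ANB1. RNR1, the large subunit of ribonucleotide reductase, had 515 CPM per kb against 7.45 for the DNA-damage-induced RNR3. The cytosolic Hsp90 genes were near each other, HSP82 at 1037 and HSC82 at 879 CPM per kb. So were GPD1 and GPD2, glycerol-3-phosphate dehydrogenases, at 704 and 587, the alpha-tubulin genes TUB1 and TUB3 at 99.3 and 76.9, the pyruvate carboxylase genes PYC2 and PYC1 at 90.04 and 69.7, and the HMG-CoA reductase genes HMG1 and HMG2 at 97.5 and 69.1 CPM per kb.

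**Figure D3:**
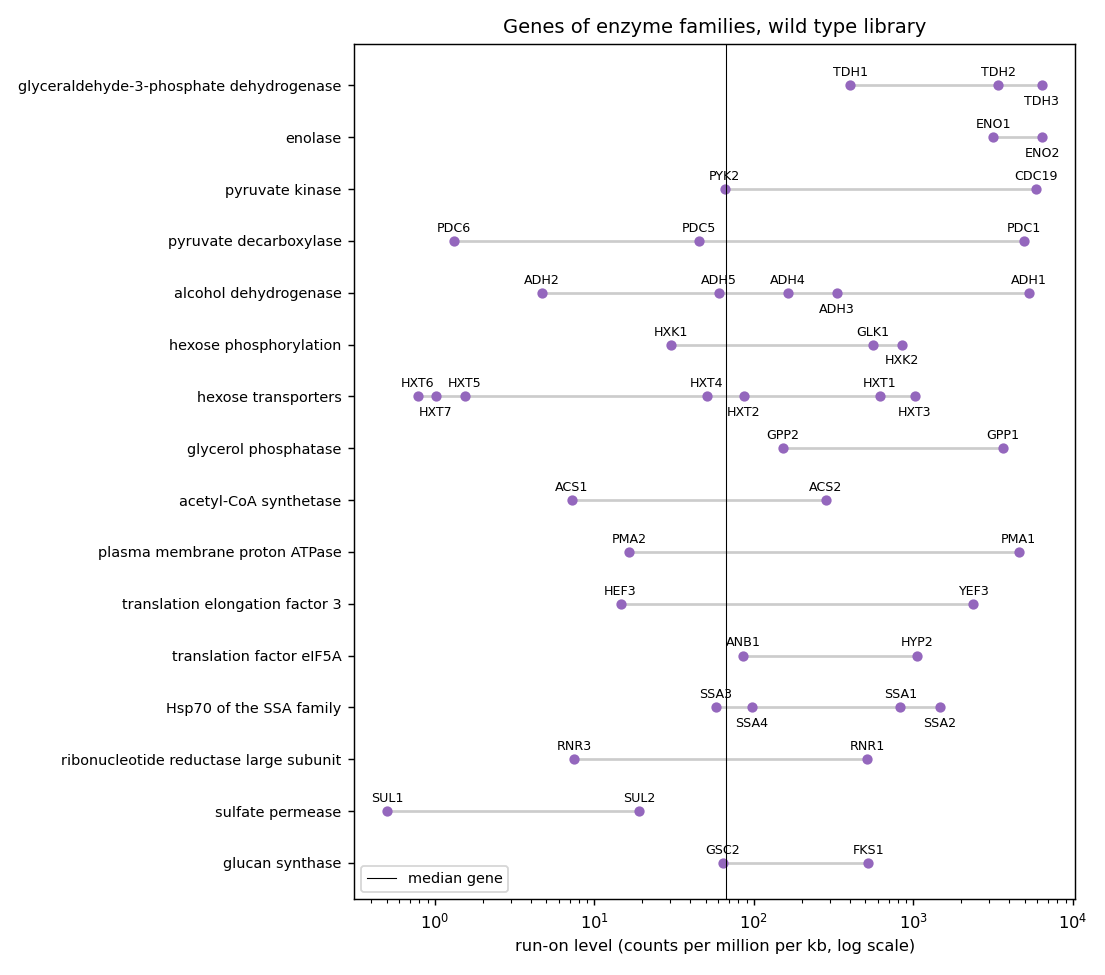
Run-on level in CPM per kb (log scale, horizontal axis) of the genes of 16 families, 1 family per line and 1 point per gene, with the median gene as a vertical line. In the families of pyruvate decarboxylase, alcohol dehydrogenase, hexose transporters, proton ATPase and elongation factor 3, the members lie over 100-fold apart.

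Every one of the 137 cytosolic ribosomal protein genes stood above the median gene of 67.3 CPM per kb. Their median was 631 CPM per kb, 9.37 times the median gene, and 128 of 137 were high (93.4%, where 9.39% of all genes were) and 0 low. The highest were RPS29A at 3662, RPS29B at 2541 and RPL3 at 2452 CPM per kb, RPS24B stood at the median with 631, and RPL1A was lowest at 81.4. RPL1A has a near-identical copy, RPL1B, at 178. Levels differed with the closeness of the most similar copy, mainly between genes without one at 80% identity or more and the rest. Genes without one were not all single, since they included the paralog pairs RPL22A and RPL22B, RPP1A and RPP1B, and RPP2A and RPP2B. The 24 genes with no similar copy had a median of 1240.4 CPM per kb, the 16 genes at 80 to 90% identity 621, the 57 genes at 90 to 95% identity 620.1, the 24 at 95 to 98% identity 508, and the 16 at 98% or more 419 CPM per kb. The part that the treatment of shared reads plays in this order was not tested.

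Introns bear on the same genes, since ribosomal protein genes hold many of the introns of yeast. The 89 ribosomal protein genes with an intron had a median of 548 CPM per kb of gene length and the 48 without had 1153. Divided by exon length alone, the 89 genes had 1098 CPM per kb, close to the 48. Whether reads in introns were counted is not stated in the sources used here, so both values are given. Among the other genes, 160 with an intron had a median of 69.6 CPM per kb of gene length and 4976 without had 65.7. Paralogs were mostly close. Of 39 paralog pairs without near-identical sequence, 34 differed less than 2-fold in CPM per kb, with a median ratio of 1.44. The widest pair was RPL15A at 1275 and RPL15B at 106 CPM per kb, a ratio of 11.99, followed by RPL9B at 2173 and RPL9A at 446, a ratio of 4.88.

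Rap1 is the DNA-binding protein that organises most ribosomal protein promoters. The letters ACCCNNACA, a core of its binding sequence, were sought on both strands within 400 bases upstream of the start codon. They were found at 44 of 137 ribosomal protein genes (32.1%), against 4.25% of all 5273 genes. Ribosomal protein genes with a match had a median of 551 CPM per kb and those without had 695, so the match did not mark the higher ones. The next 3 stretches of 60 bases, on the gene's strand and from the RefSeq R64 genome, show the match in capitals at the highest members with a match at a distance from the start codon. They come from RPL28 (chrVII:310677-310736, plus strand, 1612 CPM per kb), RPS2 (chrVII:277217-277276, plus strand, 1340.5 CPM per kb) and RPS13 (chrIV:579202-579261, plus strand, 1304 CPM per kb).
RPL28: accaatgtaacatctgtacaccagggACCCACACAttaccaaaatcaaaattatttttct
RPS2: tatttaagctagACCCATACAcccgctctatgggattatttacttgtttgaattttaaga
RPS13: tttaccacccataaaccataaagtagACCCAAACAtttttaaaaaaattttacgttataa

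Other parts of the translation machinery stood lower than the ribosomal proteins. The 37 translation factor genes had a median of 218 CPM per kb, with 14 high and 1 low. Elongation factor genes led, with YEF3 at 2370, EFB1, which overlaps another annotated gene, at 1779 and HYP2 at 1053 CPM per kb, while the initiation factor FUN12 stood at the median with 218. The near-identical genes of elongation factors 1A and 2 were lower, with TEF1 at 256, TEF2 at 200.3, EFT2 at 60.1 and EFT1 at 31.3 CPM per kb. The copies match at 99.8% or more, and the part of shared reads in these 4 levels was not tested. The 18 cytosolic aminoacyl-tRNA synthetase genes, which charge tRNAs, were even among themselves. They ran from HTS1 at 93.8 to KRS1 at 523 CPM per kb, with a median of 216 and all 18 above the median gene. The 118 ribosome biogenesis genes, which build rRNA into subunits, had a median of 107 CPM per kb, with 9 high and 0 low. SNU13 was highest at 909.8 CPM per kb, and NSR1, NOP1, DBP2 and NOP58 had 904, 445, 412 and 369.9. SOF1 stood near the median with 107, and FAL1 was lowest at 39.3 CPM per kb. The 2 motifs known from these promoters were common there. GATGAG, the PAC element, was found upstream of 106 of 118 (89.8%), against 23.1% of all genes, and AAAAATTT, the RRPE element, upstream of 100 (84.7%), against 19.2% of all genes.

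The 8 core histone genes were all high, from HTA2 at 740.2 to HTB1 at 2543 CPM per kb, with a median of 1812. Histone genes are transcribed mainly in S phase, so this value is an average over cells in and out of that phase. The H4 genes HHF2 and HHF1, at 2396 and 1994 CPM per kb, have near-identical copies of each other. Genes of DNA replication and the G1/S transition, whose window of transcription is also part of the cycle, did not share this level. The 38 genes had a median of 58.3 CPM per kb with 2 high, RNR1 at 515 and PCL1, a G1 cyclin, at 323 CPM per kb. POL1, a subunit of DNA polymerase alpha, stood at the median with 58.3. The 39 kinetochore and spindle checkpoint genes, which attach chromosomes to the spindle, had a median of 48.0 CPM per kb with 0 high and 0 low, from SPC25 at 267 to IPL1 at 19.5.

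Chaperones, which fold proteins, had a median of 389 CPM per kb over 32 genes, with 21 high and 0 low. The Hsp70 gene SSA2, a near-identical copy of SSA1, led at 1471 CPM per kb, followed by the nucleotide exchange factor FES1 at 1343, the Hsp40 gene SIS1 at 1082 and HSP82 at 1037. AHA1, a co-chaperone of Hsp90, stood near the median with 363, and SSA3, a stress-induced Hsp70, was lowest at 57.6 CPM per kb. A form of the Hsf1 element (TTC, GAA and TTC, each 2 bases apart) was found upstream of 9 of the 32 (28.1%), against 1.23% of all genes. Chaperone genes with it had a median of 889.7 CPM per kb and those without had 274. Other genes of the stress response were lower and more spread. The 45 stress-induced genes had a median of 43.6 CPM per kb, with 8 high and 9 low. High members included GPD1, for glycerol production, at 704 and TPS1, for trehalose synthesis, at 378 CPM per kb. Low members included the small heat shock gene HSP12, with 81 counts and 3.78 CPM per kb, and the glycogen-linked GAC1 at 2.42.

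Genes of the cell surface had wide ranges. The 38 cell wall genes had a median of 293 CPM per kb, with 20 high and 1 low, from CCW12 at 6889 to the cold-shock mannoprotein gene TIR1 at 13.2. UTH1 and CWP2 followed CCW12 at 2374 and 2092 CPM per kb, and CRH1, a cross-linker of chitin and glucan, stood near the median with 273. FKS1, the glucan synthase of vegetative growth, had 522 CPM per kb against 64.2 for the alternative synthase GSC2. Among 19 plasma membrane transporters, 7 were high and 2 low, with a median of 164 CPM per kb at the uridine permease FUI1. The high ones after PMA1 and the HXT genes were the amino acid permease genes BAP2 at 772, TAT1, which overlaps another gene, at 472 and TAT2 at 277 CPM per kb, and the purine-cytosine permease FCY2 at 657. GAP1, the general permease repressed by good nitrogen sources, had 14.1 CPM per kb. ENA1, the sodium pump with near-identical copies, had 0.954.

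**Figure D4:**
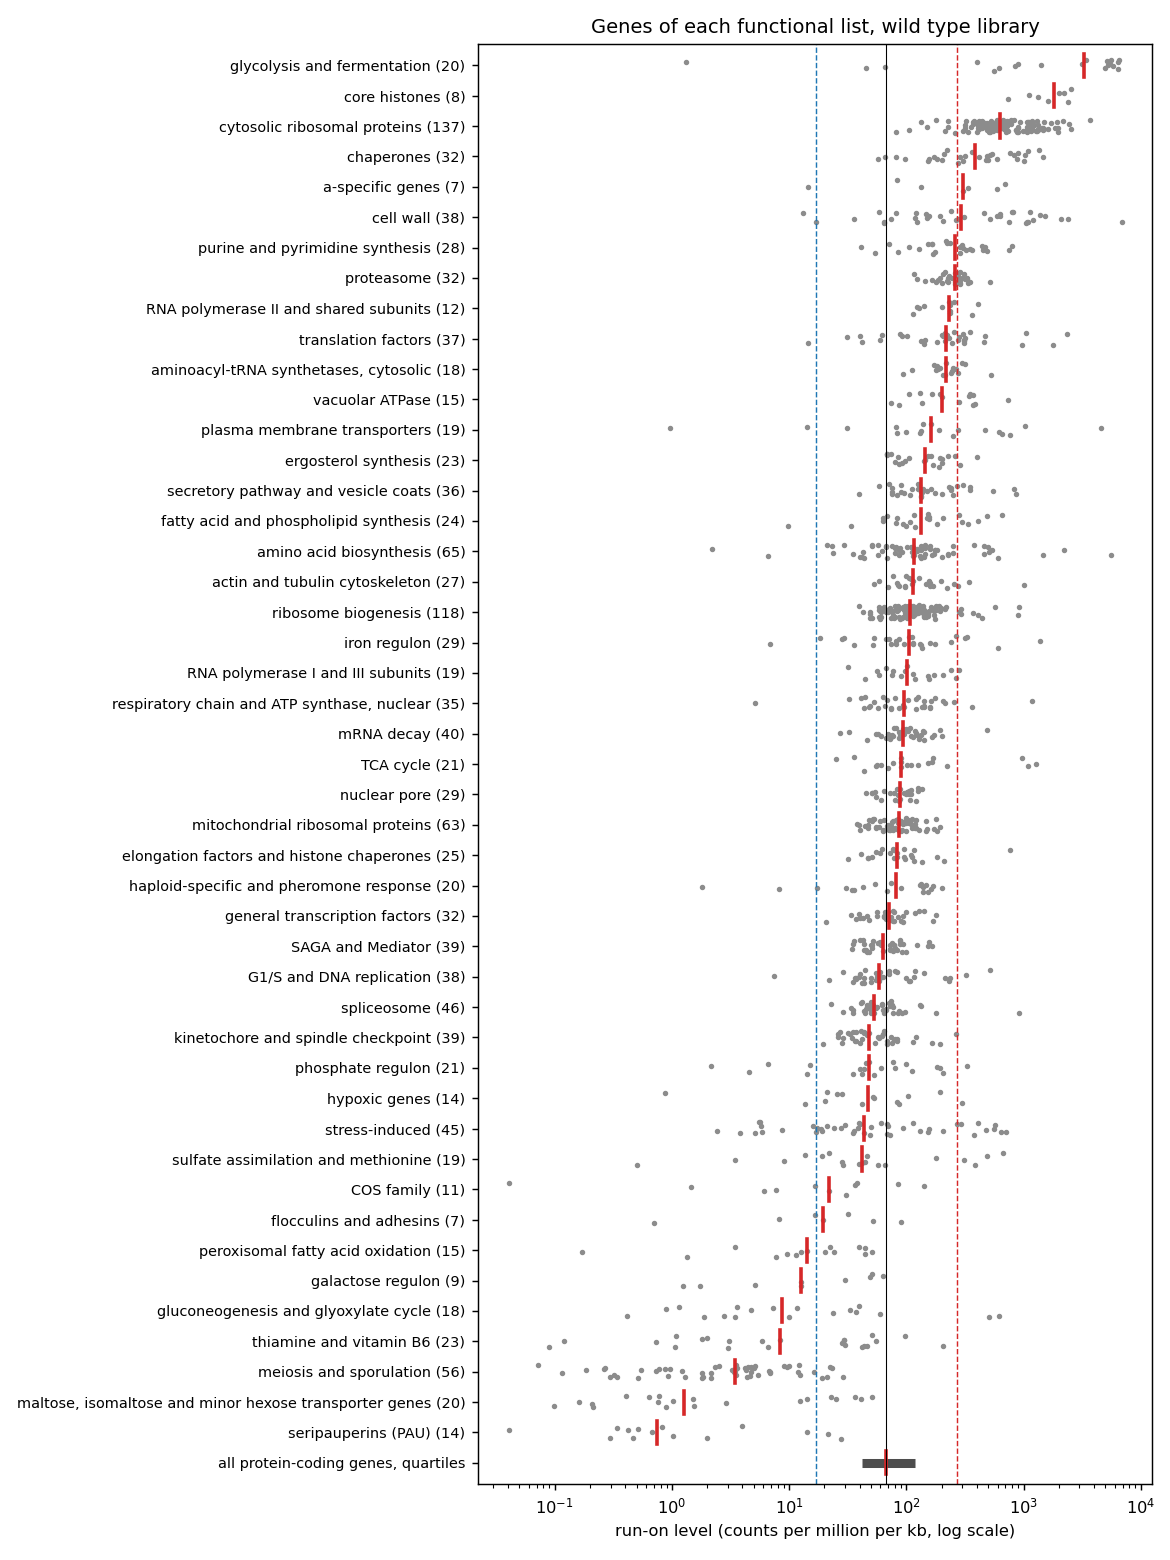
Run-on level in CPM per kb (log scale, horizontal axis) of every gene of the lists with at least 7 members, 1 grey point per gene, with the list's median as a red bar and its number of genes in parentheses. Solid and dashed vertical lines mark the median gene and the 4-fold limits, and the lowest line shows the quartiles of all protein-coding genes. Median levels run from 3288 for glycolysis and fermentation to 0.750 for the seripauperins.

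Some multi-subunit complexes had subunits at similar levels, and others did not. The 32 proteasome genes lay between RPN7 at 117 and PUP3 at 519.5 CPM per kb, with a median of 260.4, near PRE10 at 262. Their upper quartile was 1.43 times the lower, where it was 2.84 times for all genes. The same ratio was 1.43 for the aminoacyl-tRNA synthetases and 1.45 for the 29 nuclear pore genes, which had a median of 88.7 CPM per kb with 0 high and 0 low. All 12 genes of RNA polymerase II and the subunits it shares stood above the median gene, from RPB7 at 114 to RPB10 at 409 CPM per kb. The largest subunits RPO21 and RPB2 had 255 and 234. The factors that guide this polymerase were nearer the median gene, with medians of 71.5 CPM per kb for 32 general transcription factor genes and 63.8 for 39 genes of SAGA and Mediator, and 0 high or low in either list. The 15 genes of the vacuolar ATPase, which acidifies the vacuole, had a median of 200.5 CPM per kb at VMA11, with VMA3 highest at 731 and VMA8 lowest at 73.3. The upper quartile of these 15 genes was 2.71 times the lower, near the ratio of 2.84 for all genes. The 46 spliceosome genes had a median of 52.6 CPM per kb, and their 1 high gene, SNU13 at 909.8, also serves in snoRNPs. Among 40 genes of mRNA decay, the median was 94.4 CPM per kb with 1 high gene, EDC2 at 484, and XRN1 had 141.

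Rpn4 is the activator of proteasome genes, and its element GGTGGCAAA was found within 400 bases upstream of 27 of 32 proteasome genes (84.4%), against 80 of all 5273 genes (1.52%). Proteasome genes with and without it had medians of 262 and 259 CPM per kb. The match is printed in capitals, on the gene's strand, for PUP3 (chrV:349496-349555, minus strand, 519.5 CPM per kb), RPT3 (chrIV:1261479-1261538, plus strand, 296 CPM per kb) and PRE9 (chrVII:761207-761266, plus strand, 229 CPM per kb), since this list shows its element most often against the background.
PUP3: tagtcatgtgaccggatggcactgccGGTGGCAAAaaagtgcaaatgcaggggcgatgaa
RPT3: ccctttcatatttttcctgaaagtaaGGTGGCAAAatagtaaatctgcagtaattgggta
PRE9: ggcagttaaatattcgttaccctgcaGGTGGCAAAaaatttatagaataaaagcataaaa

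Amino acid and nucleotide synthesis had medians above the median gene, the former with a few genes far ahead, and sulfate assimilation had a median below it. The 65 amino acid biosynthesis genes had a median of 116 CPM per kb, with 10 high and 2 low. Behind ILV5 stood GLN1, glutamine synthetase, at 2197 and GLY1, threonine aldolase, at 1456 CPM per kb, and GLT1, glutamate synthase, stood at the median with 116. The low genes were the arginine genes ARG1 and ARG3 at 6.57 and 2.21 CPM per kb. The letters TGACTC, the core of the Gcn4 site, lay upstream of 43 of the 65 (66.2%), against 10.8% of all genes. The 28 genes of purine and pyrimidine synthesis had a median of 262 CPM per kb, with 14 high and 0 low, from ADE1 at 792 to URA10 at 40.8. Sulfate assimilation and methionine genes were split, with 4 high and 4 low of 19 and a median of 41.9 CPM per kb. CYS4, for cystathionine synthesis, had 667 and SAM1, for S-adenosylmethionine, 485 CPM per kb, while the sulfate permeases SUL2 and SUL1 had 19.0 and 0.501. CACGTG, the Cbf1 site, lay upstream of 14 of the 19 (73.7%), against 274 of all 5273 genes.

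Mitochondrial functions stood close to the median gene. The 21 TCA cycle genes had a median of 90.7 CPM per kb at SDH3, with 3 high and 0 low. The 3 were ACO1 at 1277, IDH1 at 1085 and IDH2 at 972 CPM per kb, which act in the steps from citrate to 2-oxoglutarate, and LSC2 was lowest at 25.02. For respiration and ATP synthesis, 35 nuclear genes gave a median of 96.3 CPM per kb, at ATP3. Their 2 high genes were NDE1, the external NADH dehydrogenase, at 1184 and QCR6 at 365, and the low one was the hypoxic cytochrome c gene CYC7 at 5.13. The 63 genes for mitochondrial ribosomal proteins centred on 86.6 CPM per kb, at MRPL15, with 0 high and 0 low. Their range of 37.9 to 192 CPM per kb lay apart from the median of their cytosolic counterparts, 631.

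Membrane and secretory genes lay mostly somewhat above the median gene. All 23 ergosterol genes did so, from ERG26 at 68.0 to ERG11, the target of azole drugs, at 400.2 CPM per kb, with a median of 144. Among 24 genes of fatty acid and phospholipid synthesis, 6 were high and 1 low. The desaturase gene OLE1 had 649.6 CPM per kb and the fatty acid synthase genes FAS1 and FAS2 had 409 and 337, while INO1, which is repressed by inositol, had 9.84. The 36 genes of the secretory pathway and vesicle coats had a median of 135 CPM per kb with 7 high, led by the chaperone gene KAR2 and the disulfide isomerase gene PDI1 of the endoplasmic reticulum at 866 and 823. Of 27 cytoskeleton genes, 3 were high, ACT1 for actin at 1005, TUB2 for beta-tubulin at 339.8 and PFY1 for profilin at 274 CPM per kb.

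Genes that answer to nutrients and oxygen had some members on and others nearly off. The 29 iron genes had a median of 105 CPM per kb, with 4 high and 1 low, and the iron-sulfur scaffold gene ISU1 led at 1394 while the reductase gene FRE4 had 6.82. TGCACCC, the Aft1 site, lay upstream of 16 of the 29 (55.2%), against 1.80% of all genes. Of 21 phosphate genes, 1 was high, the regulator PHO4 at 332 CPM per kb, and 5 were low, among them the sodium-phosphate carrier gene PHO89 at 6.62. The acid phosphatase genes PHO3, which is constitutive, and PHO5, which is induced by starvation, had 206 and 41.8 CPM per kb. Of 14 hypoxic genes, the repressor ROX1 was the 1 high gene at 299.6 CPM per kb, and the mannoprotein gene DAN1 was lowest at 0.876.

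Mating-type genes were split by type in this mating type a strain. Of 7 a-specific genes, 6 stood above the median gene and 4 were high, STE2, MFA2, BAR1 and STE6 at 699.7, 597, 334 and 307 CPM per kb. STE2 is the receptor for alpha-factor, MFA2 encodes a-factor, STE6 exports it and BAR1 degrades alpha-factor. MFA1 had 134, AGA2 83.5 and ASG7 14.6 CPM per kb. Of the 4 alpha-specific genes, 3 were low. The alpha-factor genes MF(ALPHA)1 and MF(ALPHA)2 had 16 and 22 counts, the a-factor receptor gene STE3 had 232 counts or 2.53 CPM per kb, and the agglutinin gene SAG1 had 42.3 CPM per kb. HMRA1 had 70.1 CPM per kb, and its sequence is also that of the active locus in a cells, so the source of its 2216 counts cannot be told apart.

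The sporulation list held more low genes than any other list. The 56 genes of meiosis and sporulation, which are off in haploid growing cells, took 0.0526% of counts. Their median was 3.49 CPM per kb, near MND1 at 3.50, and 51 of 56 were low, where 8.44% of all genes were. All 56 stood below the median gene, from CST9 at 28.8 to SPS2 at 0.0714 CPM per kb. The list does not hold SPO24, which had 3653 CPM per kb. The initiator IME1 had 22.5 CPM per kb, whereas the later regulator NDT80 had 3.58, the nuclease SPO11 3.53 and the recombinase DMC1 3.43. The depth still resolved these values, since NDT80 had 438 counts (interval 398 to 481). Ume6 represses many of these genes during growth, and its core GCCGCC was found upstream of 18 of 56 (32.1%), against 7.13% of all genes. The share was 18.2% of all low genes and 10.7% of all high genes. CSM4 (chrXVI:171261-171320, plus strand, 0.294 CPM per kb), REC8 (chrXVI:571530-571589, minus strand, 1.21 CPM per kb) and HOP1 (chrIX:226404-226463, plus strand, 4.24 CPM per kb) are shown on the gene's strand as low members with a match, which is in capitals and reads GGCGGC where it lies on the other strand.
CSM4: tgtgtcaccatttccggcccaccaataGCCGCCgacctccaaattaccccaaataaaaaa
REC8: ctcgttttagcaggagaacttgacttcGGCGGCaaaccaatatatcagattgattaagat
HOP1: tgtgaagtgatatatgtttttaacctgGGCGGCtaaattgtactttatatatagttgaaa

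Genes for other carbon sources were low. The 9 galactose genes had a median of 12.7 CPM per kb with 0 high and 5 low. The regulators differed, GAL80, the inhibitor, at 62.9, GAL3, the sensor, at 12.5 and GAL4, the activator, at 12.7 CPM per kb. Of the structural genes, the kinase gene GAL1 had 3105 counts and 30.1 CPM per kb, GAL7 365 counts and 5.11, the permease gene GAL2 193 counts and 1.72, and GAL10 170 counts and 1.25. GAL1, GAL4 and GAL10 overlap other annotated genes, and without overlapping genes the list's median was 0.452 of the median gene, against 0.189 with them. The Gal4 site, CGG and CCG around 11 free bases, was found upstream of 6 of the 9 (66.7%), against 2.26% of all genes. It is in capitals, on the gene's strand, upstream of GAL2 (chrXII:289812-289871, plus strand), GAL7 (chrII:275682-275741, minus strand) and GAL3 (chrIV:463124-463183, plus strand), low genes that carry the site.
GAL2: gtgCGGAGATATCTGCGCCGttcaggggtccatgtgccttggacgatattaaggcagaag
GAL7: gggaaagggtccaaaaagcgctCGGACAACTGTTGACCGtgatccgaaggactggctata
GAL3: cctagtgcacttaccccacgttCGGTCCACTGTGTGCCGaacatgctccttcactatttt

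The 18 genes of gluconeogenesis and the glyoxylate cycle, which are needed to grow on acetate or ethanol, had a median of 8.62 CPM per kb, with 2 high and 11 low. PCK1 and FBP1, the committed steps of gluconeogenesis, had 10.0 and 1.87 CPM per kb. The malate synthase gene MLS1 had 3.48, the lactate permease gene JEN1 2.80 and the succinate-fumarate carrier gene SFC1 0.413 CPM per kb. The high members were MDH2, cytosolic malate dehydrogenase, at 612 and CIT2, peroxisomal citrate synthase, at 510, and the isocitrate lyase gene ICL1 had 37.5. The 15 genes of peroxisomal fatty acid oxidation had a median of 14.1 CPM per kb with 8 low, from TES1 at 51.0 to POT1, the thiolase, at 0.172 with 14 counts. The 20 maltose, isomaltose and minor hexose transporter genes had a median of 1.27 CPM per kb with 15 low. In that list 9 genes have near-identical copies, and without them the median was 0.208 of the median gene, against 0.0188 with them. The maltose permease genes MAL31 and MAL11, which have no such copy, had 41.2 and 22.6 CPM per kb, while the near-identical maltase genes MAL32 and MAL12 had 0.641 and 0.211.

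Families with members near telomeres or with near-identical copies were also low. The 14 seripauperin (PAU) genes with a row, for cell wall proteins of anaerobic growth, had a median of 0.750 CPM per kb with 12 low, and 12 of the 14 have near-identical copies. A further 10 PAU genes have no row and are not analysed here. PAU23 and PAU17, which have no near-identical copy, had 27.6 and 14.1 CPM per kb. The 23 thiamine and vitamin B6 genes had a median of 8.33 CPM per kb with 12 low, from PHO3, a phosphatase, at 206 to THI5 at 0.0903. Without its 8 genes with copies, that list's median was 0.441 of the median gene, against 0.124 with them. The 11 COS genes had a median of 22.1 CPM per kb with 5 low, from COS6 at 141 to COS3 at 0.0405. Without its 5 genes with copies, the COS median was 0.553 of the median gene, against 0.328 with them. The 5 YRF1 genes with a row, helicases of the subtelomeric elements, were low and have near-identical copies, and 3 more have no row. The flocculin FLO1 had 8.16 and FLO11 19.6 CPM per kb.

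Few of the genes with a row were silent. The lowest count in the column was 1 over all 6448 rows. The reference annotation holds 171 further nuclear protein-coding genes without a row, which are not analysed here. Whether rows without counts were left out of the table was not tested, so the number of silent genes applies to the genes listed only. Fewer than 10 counts, or 0.154 CPM, were found at 46 protein-coding genes (0.866%), and 158 genes (2.98%) had fewer than 100 counts. Genes that the strain lacks set a floor for these values. LEU2 had 1 count (interval 0.0253 to 5.57), and URA3 and MET17 had 4 each (1.09 to 10.2), MET17 with an overlap. HIS3, which is deleted only in part, had 2839 counts.

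Of the 46 silent genes, 18 had a near-identical copy, 7 had no annotated length and 21 had neither. The 21 include LEU2, URA3 and MET17, which the strain lacks. Near-identical copies made up 2.47% of all genes. Of the 39 silent genes with a known position, 21 (53.8%) lay within 20 kb of a chromosome end, where 2.69% of all genes did. These 2 traits largely fell on the same genes, since all 18 with a near-identical copy lay within 20 kb of an end. The others there, without such a copy, were YOL166W-A, YAR068W and YFL067W. Those with a copy included SNO4, a member of the Hsp31 chaperone family, and PAU19, with 1 count each, and the formate dehydrogenase gene FDH1 with 2 counts. Of the 56 genes of the meiosis and sporulation list, 4 were silent, where 0.866% of all genes were. These were SPS2 and CDA2 with 7 counts each, SAE3 with 8 and CSM4 with 9. GAT3 (chrXII:171339-171764), a GATA-type factor, had 1 count (0.0253 to 5.57), the same as LEU2. At this depth, a gene with so few counts cannot be told apart from a deleted one.

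Levels were lower near chromosome ends. The 61 genes with a midpoint within 10 kb of an end had a median of 1.77 CPM per kb, and 75.4% of them were low. The 81 genes at 10 to 20 kb had 23.8, and 43.2% were low, and the 113 at 20 to 30 kb had 54.7. From 30 kb inward, medians were 64.5 to 71.0 CPM per kb. Many end genes have copies, and without near-identical ones the medians were 25.9 (24 genes), 35.2 (61 genes) and 56.7 (106 genes) CPM per kb in the first 3 bins. The order from end to interior was thus kept, with a smaller range. Whole chromosomes hardly differed, with medians from 55.8 CPM per kb on chromosome I to 74.7 on chromosome III.

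**Figure D5:**
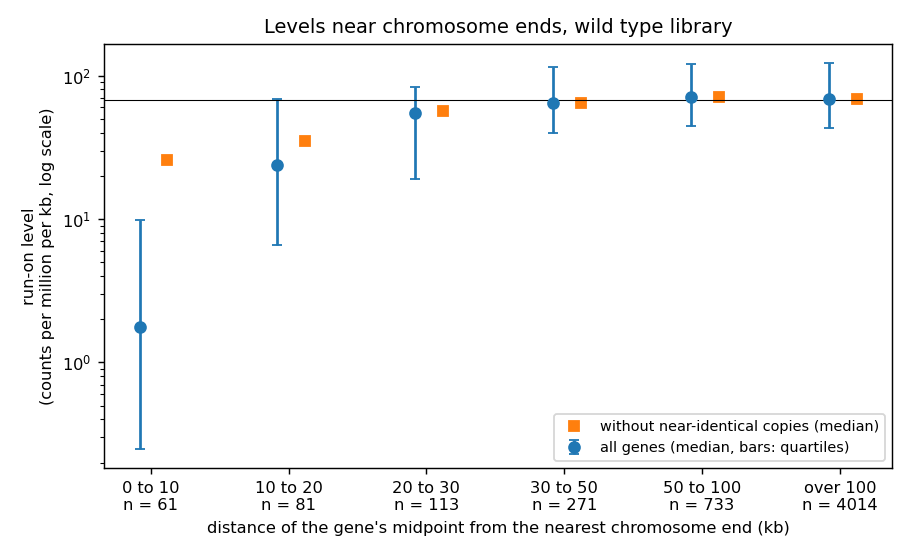
Median run-on level in CPM per kb (log scale, vertical axis) by distance of the gene's midpoint from the nearest chromosome end in kb (horizontal axis). Blue points are all genes with bars for the quartiles, orange squares are medians without near-identical copies, and the line is the median gene. The first bin stands at 1.77 for all genes and at 25.9 without copies, and from 30 kb inward the points lie between 63.9 and 71.0.

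Sequence properties of the gene body varied with the level only in part. Median levels by quintile of length, short to long, were 77.3, 75.7, 65.4, 62.6 and 62.0 CPM per kb, and the share of high genes was 14.03% in the shortest quintile and 3.22% in the longest. By quintile of GC content, low to high, they were 49.1, 59.2, 68.0, 84.5 and 100.1 CPM per kb. Since the label enters as U, the share of T on the coding strand was also compared, and medians were 74.2 CPM per kb in the quintile with the least T and 64.4 in that with the most. Across 5273 genes of this library, Spearman's rho of the level was 0.268 with GC content, -0.0993 with length and -0.0627 with T content. Genes share the library and are not independent, so these are descriptions. TATAAA within 400 bases upstream was found at 58.0% of high genes, 61.3% of low genes and 54.1% of the genes between.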

How the data were processed

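Gene counts from 1 wild type BioGRO-seq library were used. The authors deposited raw counts per open reading frame, with a class for each row. Per the submitters' processing notes, the tools were Subread and featureCounts, TopHat2 2.1.1, Trimmomatic and FastQC, on R64 (sacCer3). The sources used here do not state their settings. The total of the column was 64934493 counts, so 1 read is worth 0.0154 CPM.

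Symbols, positions, lengths and sequence came from RefSeq R64, where 5831 of 6448 rows matched by locus tag. The annotated genes hold no UTRs. Of 6002 nuclear protein-coding genes there, 171 have no row and are not analysed here, and 152 of these (88.9%) have near-identical copies. Counts were divided by the column total and by gene length. Near-identical copies were found with BLAST+ 2.17.0. Motifs were sought in 400 bases upstream of the start codon, which can include a neighbouring gene or its promoter. A match is a description, not a site.

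The members and the functional lists were chosen with earlier results of these data known, and some lists were corrected after a first look at the table. Named genes are the 15 with the highest level (at least 300 bp, no overlap, no near-identical copy) and the 15 highest of all, those with the most counts, the highest, lowest and median members of lists, genes with a textbook role and genes deleted in the strain. No gene had 0 counts, so none was named for that. The procedure was run on simulated counts with known answers, which held no shared reads, overlaps or introns and so do not test these. Calculations ran in Python 3.11.15 with pandas 2.3.3, numpy 2.4.6, matplotlib 3.10.9 and scipy 1.17.1.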

Additional observations from a re-analysis of the deposited data

Results flagged for a closer look

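Rows outside the protein-coding class also carried counts, which no comparison above used. The 566 putative reading frames held 3.06% of the wild type counts and the 573 dubious ones held 0.561%. Among the putative ones, YGL088W had 477649 counts and YJL047C-A had 149864, and both overlap an annotated snoRNA. Not divided by length, the median was 88.8 CPM for the protein-coding genes, 13.1 for the putative and 1.40 for the dubious reading frames. Fewer than 10 counts were found at 0.866%, 7.07% and 18.0% of these classes. Per length, the median was 67.3 CPM per kb for 5273 protein-coding genes and 28.6 for 555 putative reading frames. A length was known for only 3 dubious ones, so no such median is given for them.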

How the results depend on the processing

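No paired analysis was possible because only 1 library was used, and for the same reason no replicate could be omitted. Ribosomal proteins held 7.71% of counts, which became 7.44% with all rows in the total, 7.52% without overlapping genes and 6.17% without near-identical copies. The share of glycolysis and fermentation, 7.92%, was 7.63%, 8.01% and 7.18% under the same changes, above the ribosomal proteins in each. Leaving out copies dropped 40 of 137 ribosomal protein genes and 2 of 20 genes of glycolysis and fermentation. That change therefore cannot show how reads shared between copies bear on the order of these 2 lists. The ratio of the 95th to the 5th percentile, 86.0, was 49.8 without near-identical copies, and lay between 76.0 and 98.98 with exon length, T count, or without overlapping or short genes. The 495 high genes became 1105 at 2-fold and 230 at 8-fold, and the 445 low ones 908 at 2-fold and 316 at 8-fold. Silent genes numbered 46 at fewer than 10 counts, 0 at a count of 0, 23 at fewer than 5, 83 at fewer than 30, and 28 without near-identical copies. Applied to 46 list medians, a step chosen after seeing the data, 223 of 228 alternatives stayed within 1.5-fold. The 5 beyond it were the ribosomal proteins by exon length (16.3 times the median gene, against 9.37), the galactose list without overlapping genes (0.452, against 0.189), and the COS (0.553, against 0.328), maltose (0.208, against 0.0188) and thiamine (0.441, against 0.124) lists without copies. Counting error weighed most on genes with few counts, also above 10, as at POT1, whose 14 counts had an interval of 7.65 to 23.5. Variation between cultures was not measured.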

Other observations

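Some of the highest genes fell outside all lists, 169 of the 495 high ones, and those named here were chosen after their values were seen. GCN4, the activator of amino acid synthesis, had 123845 counts and 2254 CPM per kb, rank 24 of all genes. HAC1, the activator of the unfolded protein response, had 105155 counts and 1671 CPM per kb, rank 41. Both are known mainly for control after transcription, GCN4 by upstream reading frames and HAC1 by splicing. The drug efflux pump gene PDR5 had 351436 counts, 1193 CPM per kb. The peroxiredoxin genes AHP1 and TSA1 had 2238 and 1521 CPM per kb, and the superoxide dismutase gene SOD1 had 1589. Other genes against reactive oxygen were lower, with the mitochondrial SOD2 at 217 and the catalase genes CTT1 and CTA1 at 28.0 and 12.7 CPM per kb. The 14-3-3 gene BMH1 had 1819 and the cyclophilin gene CPR1 1831 CPM per kb.

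Levels of neighbouring genes on the same chromosome were compared by arrangement. Spearman's rho between the CPM per kb of both neighbours was 0.250 over 1169 divergent pairs, which share the region between their starts, 0.0776 over 2158 tandem pairs and 0.0412 over 1213 convergent pairs. Pairs share the library, and most genes belong to more than 1 pair, so no p is given.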
